A study of Mus musculus with 6 samples.

Results

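The 6 genes Vpreb1, Vpreb3, Igll1, Rag1, Rag2 and Dntt, which serve the surrogate light chain and the joining of antibody gene segments, were followed in bone marrow cells with and without cryptochromes. They were taken by name, as every probe set listed with one of these symbols alone, which gave 9 probe sets for the 6 genes, of 18193 genes with a named probe set. All 9 passed the filter on dim probe sets. Mouse bone marrow cells, labelled as strain C57BL/6, were grown with 10 ng/ml of interleukin-7 and 20% fetal bovine serum. Total RNA was hybridised to 6 oligonucleotide arrays. The DKO group (DKO 1 to DKO 3) lacked both Cry1 and Cry2, the repressors of the circadian clock, and the WT group (WT 1 to WT 3) was wild type. The labels do not give the age or sex of the mice, the time in culture, or whether arrays came from separate animals, so a p-value here reflects no more than the scatter of these arrays, part of which may be technical.

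In a developing B cell the recombinase made of RAG1 and RAG2 cuts DNA beside the V, D and J segments of the antibody genes. Terminal transferase, encoded by Dntt, adds bases without a template at the joints before they are closed. Once a heavy chain has been made it is tested on the cell surface together with the surrogate light chain, whose parts VPREB1 and lambda-5 (from Igll1) stand in for a true light chain. Signals from this pre-B cell receptor drive division, during which the recombinase is low. The surrogate light chain is then shut off and the recombinase returns for light chain joining. Dntt is mostly a gene of the earlier, pro-B cell stage.

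The genes lie at 4 places in the genome. In the RefSeq gene order of GRCm38.p6, Igll1 and Vpreb1 are direct neighbours on chromosome 16 and Rag2 and Rag1 are direct neighbours on chromosome 2, while Vpreb3 lies on chromosome 10 and Dntt on chromosome 19. The promoter windows of Dntt, Igll1, Rag1 and Rag2 are shown because these genes followed opposite orders across the arrays. Each runs from 250 bases before to 50 bases after the start of the gene, 5′ to 3′ on the strand of the gene, from RefSeq (GRCm38.p6). Capitals mark E-boxes, the letters CANNTG, to which the B lineage factor E2A and many others bind. The windows are chr19:41029025-41029324 on the plus strand for Dntt, chr16:16863936-16864235 on the minus strand for Igll1, chr2:101649483-101649782 on the minus strand for Rag1 and chr2:101624462-101624761 on the plus strand for Rag2.
Dntt: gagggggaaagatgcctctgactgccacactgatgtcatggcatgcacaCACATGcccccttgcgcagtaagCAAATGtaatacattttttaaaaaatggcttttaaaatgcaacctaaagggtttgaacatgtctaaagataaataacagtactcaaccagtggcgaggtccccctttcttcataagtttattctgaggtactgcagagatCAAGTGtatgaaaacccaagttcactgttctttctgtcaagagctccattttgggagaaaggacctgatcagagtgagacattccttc
Igll1: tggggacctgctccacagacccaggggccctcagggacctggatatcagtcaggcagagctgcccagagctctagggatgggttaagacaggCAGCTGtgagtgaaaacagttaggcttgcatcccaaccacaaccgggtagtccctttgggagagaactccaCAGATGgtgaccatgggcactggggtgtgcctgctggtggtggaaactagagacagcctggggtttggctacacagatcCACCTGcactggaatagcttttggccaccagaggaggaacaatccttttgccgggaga
Rag1: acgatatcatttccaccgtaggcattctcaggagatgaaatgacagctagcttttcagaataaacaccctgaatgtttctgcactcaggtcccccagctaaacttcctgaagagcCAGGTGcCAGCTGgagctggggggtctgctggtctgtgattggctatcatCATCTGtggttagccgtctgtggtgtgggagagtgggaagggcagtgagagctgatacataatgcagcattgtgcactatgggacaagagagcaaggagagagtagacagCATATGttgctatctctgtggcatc
Rag2: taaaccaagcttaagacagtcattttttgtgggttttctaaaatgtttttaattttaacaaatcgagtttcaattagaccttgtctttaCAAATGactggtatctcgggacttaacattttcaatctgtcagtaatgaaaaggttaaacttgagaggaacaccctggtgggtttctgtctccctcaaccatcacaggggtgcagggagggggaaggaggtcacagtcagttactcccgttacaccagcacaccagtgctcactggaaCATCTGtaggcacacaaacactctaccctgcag

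All 6 genes had a window in the table and all 6 windows held an E-box, as did 72.3% of 32851 windows of the same length. Vpreb3 had 5 matches, some of which overlap, Rag1 had 4, Igll1 and Dntt 3 each, Rag2 2 and Vpreb1 1. The E-box letters preferred by CLOCK and BMAL1, CACGTG, were in 0 of the 6 windows and in 7.15% of all windows. On either strand, the core letters CCCNNGGG of sites for EBF1, a factor that activates surrogate light chain genes, were found in the Igll1 window alone of the 6 (13.7% of all windows). The letters TGGGAA of the Ikaros core were found in the Rag1 window alone (25.6% of all windows). The FOXO letters GTAAACA (3.65%), the STAT letters TTCNNNGAA (8.3%) and the letters TATAAA (13.6%) were in none of the 6. These matches describe the letters of the windows only.

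WT 2 stood apart from the other arrays, and DKO 3 stood closer to WT 1 and WT 3 than to the other knockout arrays. For Actb, control probes at the 3′ end outshone those at the 5′ end by a ratio of 824 on WT 2, where the other arrays had 1.47 to 2.05, and the median intensity was 115 against 44.0 to 55.3. DKO 3 correlated across probe sets with WT 3 at 0.982 and with DKO 1 at 0.956. In the cells labelled as bone marrow, Cd79b, a signalling chain of the B cell receptor, read 15256 to 22357 on 5 arrays and 4212 on WT 2. Cry1, one of the targeted genes, read 359, 399 and 545 in DKO 1, 2 and 3 against 1533, 1502 and 955 in WT 1, 2 and 3. Cry2 read 133 to 178 in DKO and 102 to 145 in WT. The part of each gene that was deleted is not known here, so these signals do not check the labels.

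With all 6 arrays, 0 of the 9 member probe sets passed limma at an adjusted p of 0.05, where 2 of 27022 tested probe sets, 0.0074%, did. Without WT 2 the members' count was also 0, against 7 of 27022, or 0.0259%, and without any 1 of the other arrays no probe set was called. At an unadjusted p under 0.05 limma had 1 member probe set with all 6 arrays, for Dntt, where 3.12% of all tested probe sets were under it. Without WT 2 there were 3, for Rag1, Rag2 and Dntt, against 4.35% of all. No member probe set had all DKO arrays above all WT arrays (6.97% of tested probe sets did) or all below them (3.29%). The differences below are on the scale of log2(intensity + 16) with each array centred on its median, where the tested probe sets as a whole had a median of 0.21 (-0.02 with quantile normalization).

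**Figure D1:**
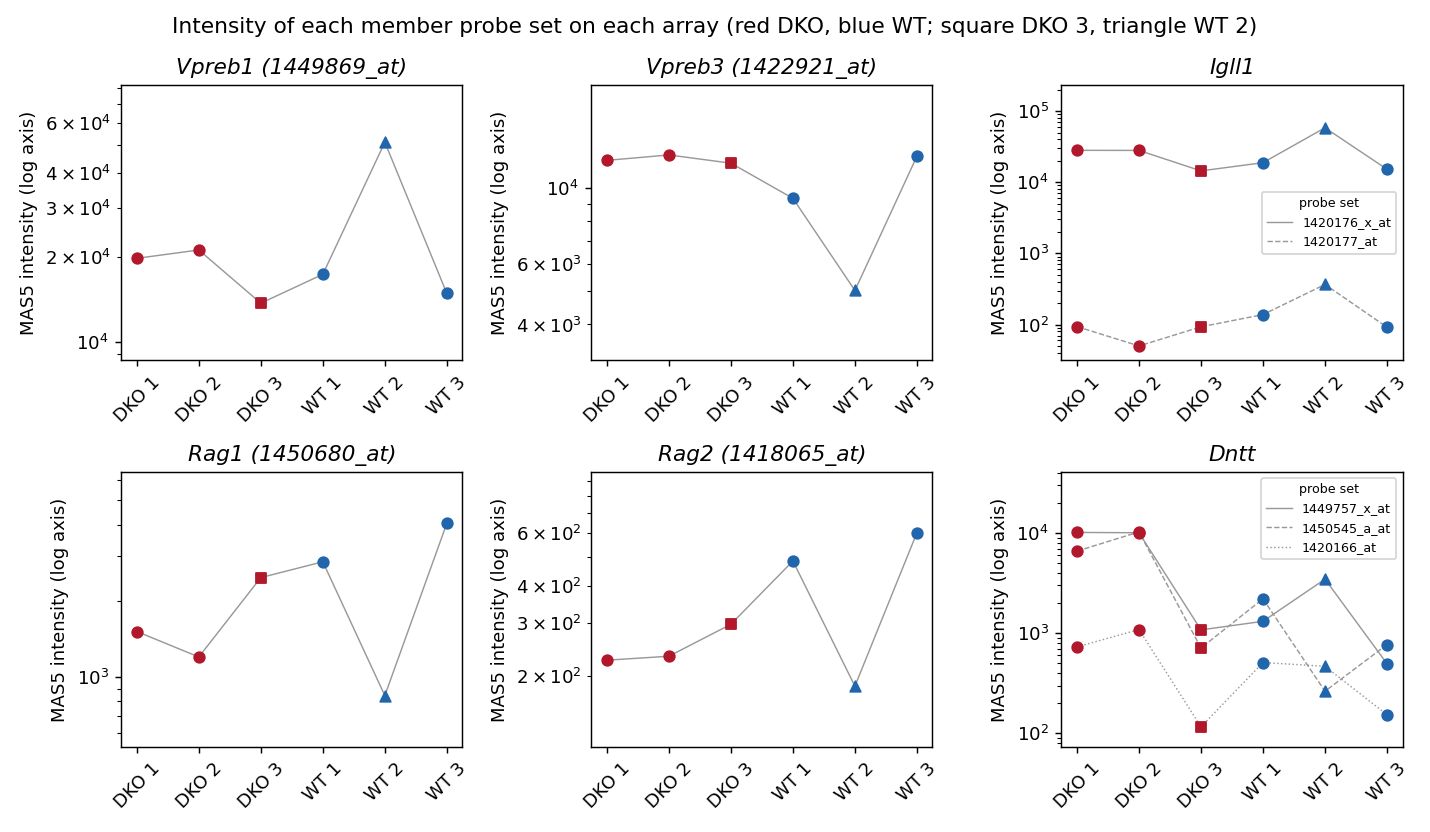
Intensity (log axis) of each probe set of the 6 genes on each array, with DKO arrays in red, WT arrays in blue, DKO 3 as a square and WT 2 as a triangle. Lines only join points of 1 probe set. The Dntt panel shows DKO 1 and DKO 2 above the other 4 arrays in all 3 probe sets, and the Rag1 and Rag2 panels show them below DKO 3, WT 1 and WT 3.

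Dntt was high on DKO 1 and DKO 2 and low on DKO 3, which read like the WT arrays. Its brightest probe set, 1449757_x_at, had an intensity of 10162, 10083 and 1079 in DKO 1, 2 and 3 against 1314, 3466 and 495 in WT 1, 2 and 3. The groups overlapped, since DKO 3 lay below WT 1 and WT 2. On the log2 scale DKO was at 12.39 ± 1.72 and WT at 10.22 ± 0.87 (SD, n = 3 each), a difference of 2.17 ± 0.90 (SE), with a 95% interval from 0.05 to 4.28, or 4.5-fold. The limma adjusted p was 0.822. The difference was 2.53 without WT 2 and 3.16 without DKO 3, with limma adjusted p of 0.948 and 0.37. With any other 1 array left out it was 1.67 to 2.29.

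The other Dntt probe sets also had DKO 1 and DKO 2 at the top. Probe set 1450545_a_at read 6610, 10278 and 711 in DKO 1, 2 and 3 against 2206, 263 and 769 in WT 1, 2 and 3, a log2 difference of 2.54 ± 1.24 (SE). It moved to 1.46 without WT 2 and 3.63 without DKO 3. Probe set 1420166_at read 729, 1088 and 116 in DKO 1, 2 and 3 against 509, 467 and 153 in WT 1, 2 and 3, a log2 difference of 0.76 ± 0.79 (SE). This became 1.61 when DKO 3 was left out and 0.19 or 0.44 when DKO 2 or WT 3 was. The limma adjusted p of each was 0.822 with all 6 arrays. In all 3 probe sets DKO 1 and DKO 2 were above every WT array, which held for 17.2% of all tested probe sets. On WT 2 the probe sets disagreed, which ranked next after DKO 1 and DKO 2 in the first and lowest of all arrays in 1450545_a_at. The x in the name of the first marks probes that can also bind other sequences.

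Markers of other cells followed or opposed the array order of Dntt. T cells rearrange their receptor genes with the same enzymes, and 6 of 9 measured T cell and thymocyte markers were above every WT array on both DKO 1 and DKO 2 on the centred log2 scale. In intensity as deposited 5 of 9 were, and 17.2% of all tested probe sets had this order on the log2 scale. Their summed intensity was 9102 and 6444 on DKO 1 and DKO 2, 783 on DKO 3 and 596 to 2122 on the WT arrays. Most of this sum on DKO 1 and DKO 2 came from Lat and Thy1. Thy1 read 3389 and 1617 there and 276 to 1182 on the other arrays. Some orders were close. Log2 levels of Ptcra were 5.91 and 6.34 on DKO 1 and DKO 2 and 5.90 on WT 1. Those of Cd3e were 6.38 and 6.97 against 6.31 on WT 2. In intensity Cd7 read 14.2 and 14.8 on DKO 1 and DKO 2 against 8.89 to 12.7 in WT. Lat, a signalling adaptor, read 5235 and 4020 on DKO 1 and DKO 2 and 183 to 593 on the other arrays. Cd3d, part of the T cell receptor complex, read 155 and 295 on DKO 1 and DKO 2 and 7.9 to 14.0 on DKO 3 and the WT arrays. Cd4, the coreceptor of helper T cells, read 10.1, 9.58 and 9.17 in DKO and 5.07 to 41.2 in WT. Cd8a went the other way. It read 68.1, 111 and 47.8 in DKO 1, 2 and 3 against 112, 243 and 84.5 in WT 1, 2 and 3. Cd4 and Cd7 did not pass the filter on dim probe sets. Without detection calls, the presence of such dim transcripts cannot be read from these intensities. The part of T lineage cells in the Dntt signal was not tested. All 9 measured granulocyte markers were below every WT array on both DKO 1 and DKO 2, an order that 10.4% of all tested probe sets had, and 0 of 9 were on DKO 3. Their summed intensity was 522 and 467 on DKO 1 and DKO 2, 26946 on DKO 3 and 18752 to 177900 on the WT arrays. Of 11 macrophage and monocyte markers 6 were likewise below every WT array on DKO 1 and DKO 2, and 0 on DKO 3. All 4 mast cell and basophil markers were above every WT array on DKO 1 and DKO 2. Their summed intensity was 981 and 820 on DKO 1 and DKO 2, 67 on DKO 3 and 91 to 283 on the WT arrays. On the log2 scale this order held for 3 of 7 dendritic and plasmacytoid cell markers and 2 of 4 NK cell markers. It held for 2 of 7 plasma cell, 1 of 4 early lymphoid progenitor, 0 of 4 B lineage and 0 of 2 erythroid markers. The part of these cells in the Dntt signal was not tested either. In bulk RNA such as this, fewer cells of a type and less RNA per cell cannot be told apart.

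Rag1 and Rag2, the neighbouring recombinase genes, had the opposite order, low on DKO 1 and DKO 2 and also on WT 2. Rag1 (1450680_at) had an intensity of 1513, 1200 and 2472 in DKO 1, 2 and 3 against 2855, 844 and 4053 in WT 1, 2 and 3. WT 2 was the lowest of the 6 arrays and the groups overlapped. The log2 level was 10.86 ± 0.65 in DKO against 10.92 ± 1.75 in WT (SD, n = 3 each), a difference of -0.06 ± 0.88 (SE), with a 95% interval from -2.14 to 2.02 (limma adjusted p = 0.983). Without WT 2 the difference was -1.05 ± 0.41 (SE), for which limma gave an unadjusted p of 0.0361 and an adjusted p of 0.948. Its sign turned without DKO 1 (0.05), DKO 2 (0.20), WT 1 (0.27) or WT 3 (0.61).

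Rag2 (1418065_at) read 226, 233 and 298 in DKO 1, 2 and 3 against 485, 185 and 603 in WT 1, 2 and 3. All DKO arrays were below WT 1 and WT 3, an order shared by 8.14% of all tested probe sets, and all were above WT 2. The log2 level was 8.21 ± 0.34 in DKO against 8.48 ± 1.44 in WT (SD, n = 3 each), a difference of -0.26 ± 0.71 (SE), with a 95% interval from -1.93 to 1.40 (limma adjusted p = 0.91). Without WT 2 it was -1.08 ± 0.31 (SE), for which limma gave an unadjusted p of 0.0101 and an adjusted p of 0.948. Its sign turned without WT 1 (0.03) or WT 3 (0.27). Neither recombinase gene can be said to be alike in both genotypes, since both intervals reach beyond 1 on the log2 scale in both directions.

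**Figure D2:**
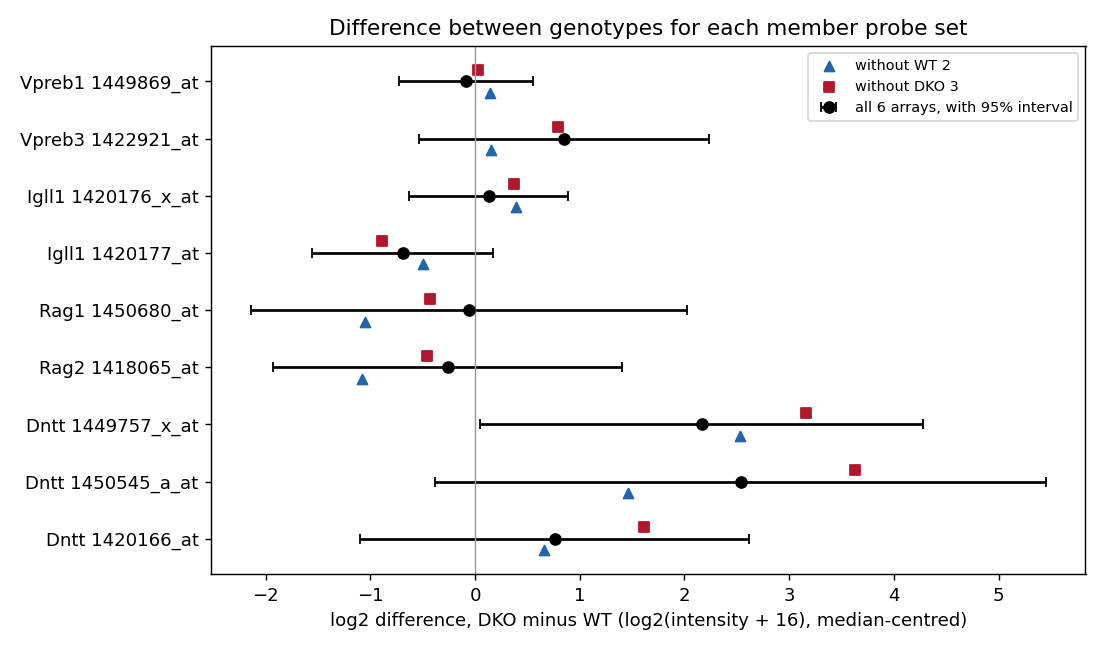
Log2 difference, DKO minus WT, of each probe set of the 6 genes. Black points are the fit of all 6 arrays with its 95% interval, blue triangles the fit without WT 2 and red squares the fit without DKO 3. Rag1 moves from -0.06 to -1.05 and Rag2 from -0.26 to -1.08 without WT 2, and the first Dntt probe set lies at 2.17, 2.53 and 3.16.

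Vpreb1 and Igll1, the neighbouring genes for the parts of the surrogate light chain, were read at high intensity on every array. Vpreb1 (1449869_at) read 19809, 21211 and 13707 in DKO 1, 2 and 3 against 17371, 51355 and 14851 in WT 1, 2 and 3. WT 2 was the brightest array and DKO 3 the dimmest. The log2 level was 14.29 ± 0.21 in DKO against 14.38 ± 0.40 in WT (SD, n = 3 each), a difference of -0.09 ± 0.27 (SE), with a 95% interval from -0.73 to 0.55 (limma adjusted p = 0.92). Its sign turned to 0.14 without WT 2, 0.03 without DKO 3 and 0.05 with quantile normalization. A further probe set, listed for both Vpreb1 and its close copy Vpreb2 and therefore no member, read 22279, 23491 and 10902 in DKO 1, 2 and 3 against 13509, 4856 and 11695 in WT 1, 2 and 3. WT 2 was the highest array for the one and the lowest for the other. Which copy gave the signal was not analysed here.

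Igll1 (1420176_x_at) followed Vpreb1, at 28090, 28005 and 14442 in DKO 1, 2 and 3 against 18837, 58291 and 15222 in WT 1, 2 and 3. DKO 1 and DKO 2 were above WT 1 and WT 3, and DKO 3 was below both. The log2 level was 14.61 ± 0.42 in DKO against 14.49 ± 0.46 in WT (SD, n = 3 each), a difference of 0.13 ± 0.32 (SE) (limma adjusted p = 0.906). It was 0.39 without WT 2 and 0.37 without DKO 3. The sign turned without centring (-0.19), with centring on the tested probe sets (-0.17) and without WT 3 (-0.04). The dimmer Igll1 probe set, 1420177_at, read 93.6, 50.0 and 92.9 in DKO and 138, 366 and 91.7 in WT, a log2 difference of -0.69 ± 0.37 (SE) that became -0.42 without DKO 2. The Igll1 probe sets thus disagreed in direction.

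Vpreb3 encodes a VPREB-like protein that binds new immunoglobulin chains inside the cell, and it read close values on the arrays other than WT 1 and WT 2. It was at 12035, 12481 and 11810 in DKO 1, 2 and 3 against 9329, 5025 and 12375 in WT 1, 2 and 3. In intensity WT 3 lay among the DKO values, so the groups overlapped. The log2 level was 13.72 ± 0.11 in DKO against 12.87 ± 1.24 in WT (SD, n = 3 each), a difference of 0.85 ± 0.59 (SE), with a 95% interval from -0.54 to 2.23 (limma adjusted p = 0.822). Without WT 2 it was 0.15 ± 0.20 (SE), and without WT 3 it was 1.34.

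The genes fell into opposite array orders. Over the 5 arrays without WT 2, Pearson's r of the log2 levels was 0.95 for Rag1 with Rag2, 0.96 for Vpreb1 with Igll1 and 0.97 for Igll1 with Dntt. It was -0.99 for Rag1 with Dntt and -0.94 for Rag1 with Igll1. With WT 2 included the r of Rag1 with Dntt was -0.49 and that of Rag1 with Rag2 was 0.98. Vpreb3 had an r between -0.15 and 0.17 with the other genes without WT 2, but over 6 arrays it was at -0.85 with Vpreb1, 0.81 with Rag1 and 0.76 with Rag2. These are descriptions over few arrays whose points share the RNA of an array and its cell mix.

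**Figure D3:**
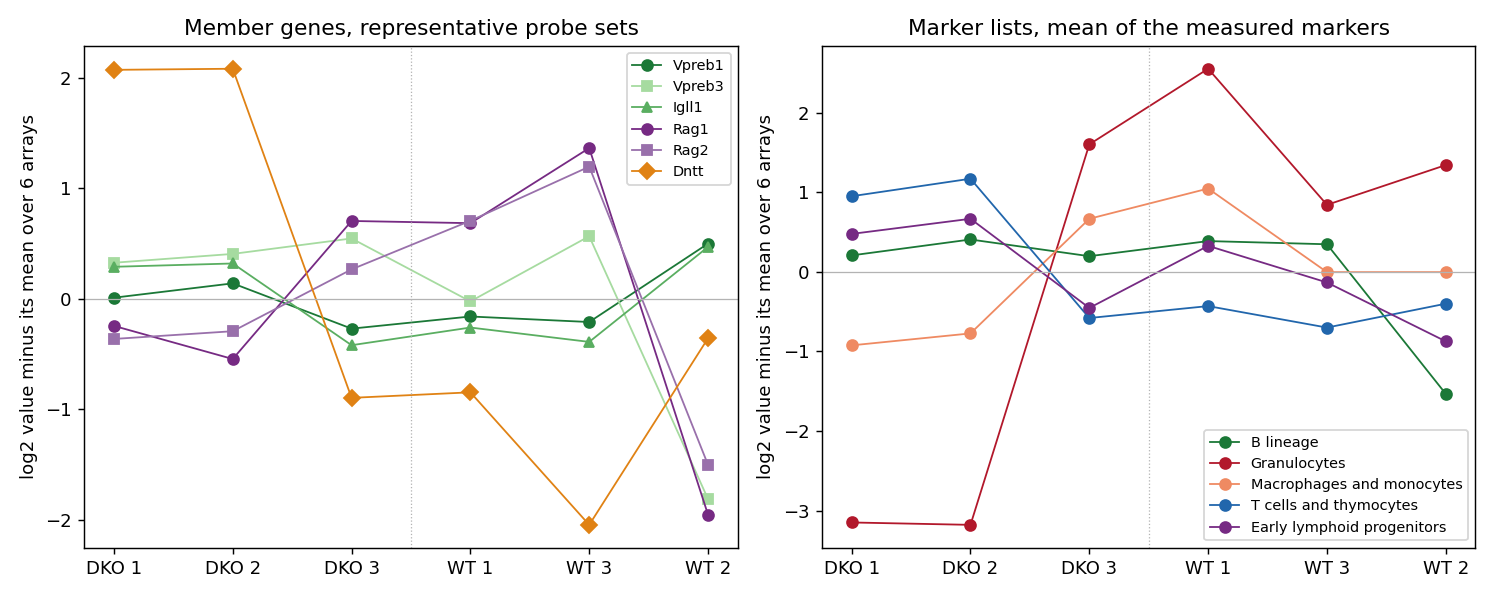
Log2 level of each gene (left, brightest probe set) and mean log2 level of 5 marker lists (right), each minus its mean over the 6 arrays, with WT 2 drawn last and lines joining points of 1 gene or list. Dntt and the T cell markers are high on DKO 1 and DKO 2, where Rag1, Rag2 and the granulocyte markers are low.

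To set the members against B lineage genes of the same array, the mean of Cd79a and Cd79b was subtracted from their log2 level. These genes encode the signalling chains of the pre-B and B cell receptors. On this relative scale Rag1 and Rag2 were lower on every DKO array than on every WT array, WT 2 included. Relative Rag1 was -1.49, -2.37 and -0.99 in DKO 1, 2 and 3 against -0.55, -0.20 and -0.25 in WT 1, 2 and 3. The difference of the means was -1.28, from -1.61 ± 0.70 in DKO against -0.33 ± 0.19 in WT (SD, n = 3 each). Relative Rag2 was -4.15, -4.65 and -3.97 in DKO 1, 2 and 3 against -3.07, -2.29 and -2.97 in WT 1, 2 and 3, a difference of -1.48. The exact two-sided permutation p was 0.10 for each, the smallest that 3 arrays against 3 can give, and 0.30 after adjustment over the 6 genes. Of all tested probe sets, 12.5% were likewise below every WT array on this scale. Without WT 2 the differences were -1.21 for Rag1 and -1.24 for Rag2. The separation held with Cd79a or Cd79b alone as reference. The reference genes were not even across arrays, and Cd79a read 878 to 1739 on 5 arrays and 214 on WT 2. Pax5 was also lowest on WT 2 (148, against 167 to 340). Ebf1 was highest there (10547, against 2005 to 4532). The B lineage content of WT 2 cannot be read from these genes. The separation was lost when the B lineage factors Pax5 and Ebf1 were added to the reference, where the differences were -0.60 for Rag1 and -0.80 for Rag2.

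The other members overlapped between the genotypes on the relative scale. Relative Dntt was 1.25, 0.69 and -2.17 in DKO 1, 2 and 3 against -1.66, 1.82 and -3.24 in WT 1, 2 and 3, a difference of 0.95 (exact permutation p = 0.80). WT 2 was the highest array here, and without it the difference was 2.37. Without WT 3 its sign turned, to -0.16. Relative Vpreb1 and Igll1 were 5.70 and 5.89 on WT 2, where both reference genes were dim, and 1.48 to 2.71 on the other arrays. Their differences were -1.31 and -1.09 with all arrays and -0.02 and 0.23 without WT 2. Relative Vpreb3 differed by -0.37 with an exact permutation p of 0.50.

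**Figure D4:**
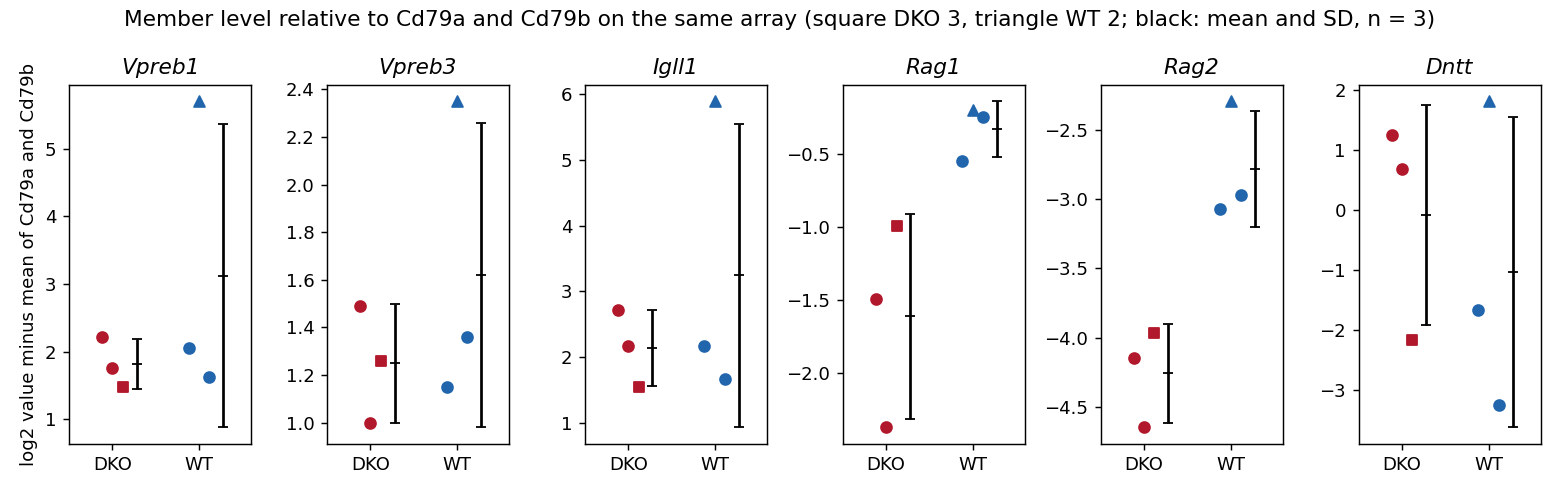
Log2 level of each gene minus the mean of Cd79a and Cd79b on the same array, by genotype, with DKO 3 as a square, WT 2 as a triangle and black bars for the mean and SD (n = 3). Rag1 and Rag2 show DKO arrays at or below -0.99 and -3.97 and WT arrays at or above -0.55 and -3.07, and each panel has its own axis.

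Genes listed as recombination partners, among them those whose proteins close the breaks made by the recombinase, gave 0 calls in either direction. Of 15 listed genes 13 were measured and tested, 11 with a higher and 2 with a lower mean in DKO. Their median was 0.44 on the log2 scale, where that of all genes was 0.31. Without WT 2 the split was 8 and 5 and the median 0.05, where that of all genes was 0.01. The smallest p belonged to Xrcc6, which encodes KU70, a protein that holds broken ends, at 2.07 ± 1.13 (SE) (0.68 without WT 2). Next came Poll, a polymerase of end joining, at 0.68 ± 0.55 (SE) (0.12 without WT 2).

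Partners of the surrogate light chain in the pre-B cell receptor and its signalling also gave 0 calls. Of 12 listed 9 were tested, 6 higher and 3 lower in mean, with a median of 0.12. Without WT 2 the split was 4 and 5 and the median -0.06, and without DKO 3 the median was 0.45. Blnk, the adaptor that links the receptor to its enzymes, differed by 1.18 ± 0.49 (SE) and by 0.66 without WT 2. Cd79b differed by 1.23 ± 0.80 (SE) and by 0.21 without WT 2. The brightest probe set of Ighm, the heavy chain gene whose product pairs with the surrogate light chain, differed by -0.39 and by -0.09 without WT 2, and its 7 other probe sets differed by 0.21 to 5.22.

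Transcription factors of early B cells, several of which act on these promoters, gave 0 calls among 20 tested of 21 listed, with 18 higher and 2 lower in mean and a median of 0.40. Without WT 2 the split was 12 and 8 and the median 0.06. Irf8 differed by 1.51 ± 0.66 (SE) (0.75 without WT 2), and Erg by 2.00 ± 0.93 (SE) (1.04 without WT 2). For Irf8 all DKO arrays were above all WT arrays, an order that 6.97% of all tested probe sets had. Ikzf1, Ikzf3 and Bcl11a had it too, and Bcl6 had the reverse (3.29% of all tested probe sets). Some of these orders were close. The lowest DKO and highest WT log2 levels were 13.19 and 13.18 for Ikzf1 and 12.07 and 12.06 for Ikzf3. Tcf3, which encodes E2A, differed by 1.47 and by 0.01 without WT 2. Ebf1, which activates surrogate light chain genes, differed by -0.49, and its 4 other probe sets by 0.46 to 0.98.

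Genes that mark pro-B and pre-B cells gave 0 calls among 16 tested of 17 listed, with 13 higher and 3 lower in mean and a median of 0.66, or 0.19 without WT 2. Cnp, listed as a stage gene, differed by -0.78 ± 0.32 (SE) and by -0.49 without WT 2, where its 2 other probe sets differed by 1.21 and 0.47. Bst1, a surface enzyme of early B cells, differed by 1.17 ± 0.61 (SE) and by 0.70 without WT 2. Light chain and later B cell genes gave 0 calls among 7 tested of 13 listed, 2 higher and 5 lower. Their median was -1.03, where that of all genes was 0.31. Without WT 2 it was -0.98, where that of all genes was 0.01. Igk, the only light chain gene tested, differed by 0.05 and by -0.61 without WT 2. Its 2 other probe sets differed by 2.18 and 0.5. Cd22, an inhibitory coreceptor, differed by -1.62 ± 0.74 (SE) and by -2.49 without DKO 3, where its other probe set differed by 0.77. Cd40, a receptor for T cell help, differed by -1.10 ± 0.52 (SE), where its 2 other probe sets differed by -1.78 and 0.33. The limma adjusted p was 0.822 for each gene named in these 5 lists except Igk (0.981) and Ikzf3 (0.826).

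The genes whose array profile was most like the mean of Vpreb1, Vpreb3 and Igll1, among 9628 genes whose level spanned at least 1 on the log2 scale, were Fyn, Gm5817, Tnfrsf18, Hdhd5 and Irf1. Their Pearson r over 6 arrays was 0.996, 0.993, 0.990, 0.989 and 0.989, and 0.983 to 0.994 without WT 2. That mean profile ran from -0.28 on WT 2 to 0.29 on DKO 2, and it averages over opposite orders, since on WT 2 Vpreb1 and Igll1 were highest and Vpreb3 lowest. For the mean of Rag1, Rag2 and Dntt they were Rab5a, Acsl4, Chkb, Secisbp2l and Dennd5a, at 0.998 to 0.999, and 0.982 to 0.992 without WT 2. That profile was -1.27 on WT 2 and 0.02 to 0.49 on the other arrays, and it averages over the opposite orders of Dntt and the recombinase genes.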

How the data were processed

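Total RNA of 6 samples of cultured mouse bone marrow cells, 3 per genotype, was hybridised to 1-colour oligonucleotide arrays. The authors deposited 1 intensity per probe set and array, not on a log scale. Per the submitters' processing notes these come from MAS5. Their mean without the highest and lowest 2% was 500 on each array. Neither a genome build nor detection calls or batches were given in the sources used here. Of 45037 probe sets other than controls, 34945 were listed with 1 symbol, 932 with several and 9160 with none, and symbols were updated by gene identifier (34741 matched). The number of arrays limits the precision.

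Values were transformed as log2(intensity + 16), which understates changes of dim genes, and centred on each array's median, and a test was run on the 27022 probe sets whose mean passed percentile 40. limma 3.58.1 in R 4.3.3 fitted group as the only term, with trended variances, two-sided, and Benjamini-Hochberg adjustment over all tested probe sets at 0.05. Settings that leave out an array kept the centring and the tested probe sets. A gene's representative was its probe set with the highest mean intensity. Named were all probe sets of the members, the targeted genes and, from each list, the called genes or the 2 with the smallest p. The 5 genes of closest profile by Pearson's r were named too. Tcf3, Ebf1, Ighm, Igk, Ikzf1, Ikzf3, Bcl11a, Bcl6 and the markers were named after their values were seen. The level relative to B lineage genes was computed against Cd79a and Cd79b, and a further planned reference is not reported here. The fit was tested on simulated data whose spread was taken without WT 2, so this does not check the fit with that array included. Members, lists and settings were chosen with earlier results of these data known, among them that DKO 3 and WT 2 stood apart. Tables and figures were made in Python 3.11.15 with matplotlib 3.10.9 and exact tests with scipy 1.17.1.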

Additional observations from a re-analysis of the deposited data

How the results depend on the processing

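The number of probe sets called, 2 with all 6 arrays, was 0 with quantile normalization, no centring, centring on the tested probe sets, a pseudocount of 1 or the replicate block, 1 with a filter at percentile 60 or robust variances, 5 with quantile normalization without WT 2 (chosen after seeing the data), and 0 to 7 with 1 array left out. The members called were 0 in all of these. Array weights, whose fit stopped before its tolerance was reached, put a weight of 30.8 on WT 1 and 0.0526 on WT 2. They gave 8129 calls among 27022 tested probe sets and 7 among the 9 member probe sets. Leaving out both DKO 3 and WT 2 gave 1099 calls among the 27022. Of the 9 member probe sets 5 were called (Igll1 0.63, Rag1 -1.42, Rag2 -1.28 and 2 of Dntt, the brightest at 3.52). DKO 3 was set apart with its values known, so these calls are no independent evidence of a genotype difference. The cause of these changes was not tested.

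The sign of Vpreb1 turned to 0.23 with array weights, 0.05 with quantile normalization, 0.13 with that and no WT 2, and 0.26 without DKO 3 and WT 2. That of Igll1 turned to -0.17 with centring on the tested probe sets, -0.19 with no centring and -0.69 in its other probe set. With 1 array left out the log2 difference was -0.21 to 0.14 for Vpreb1, -0.04 to 0.39 for Igll1, -1.05 to 0.61 for Rag1, -1.08 to 0.27 for Rag2, 0.15 to 1.34 for Vpreb3 and 1.67 to 3.16 for Dntt. Relative to B lineage genes the sign turned for Vpreb1 (0.15) and Igll1 (0.53) without DKO 3 and WT 2 and for Vpreb3 (0.31) with Pax5 and Ebf1 in the reference (chosen after seeing the data). With 1 array left out, relative Igll1 was -1.88 to 0.23, Dntt -0.16 to 2.37, Rag1 -1.59 to -0.90 and Rag2 -1.63 to -1.24.

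The median over tested probe sets was 0.21 in the reported fit, -0.02 with quantile normalization and -0.10 with no centring. The labels do not say whether the replicate numbers pair the arrays. Correlations of deviations between arrays of the same number were -0.151, -0.002 and 0.334. By these, 2 of 6 arrays were closest to their own number, which does not settle whether arrays were paired. The replicate block left Dntt at 2.17, with an SE of 0.53 in place of 0.90. Its limma p was 0.00813 unadjusted and 0.804 adjusted.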

Other observations

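Genes of B cell stages, named after their values were seen, differed among the arrays of 1 genotype. Kit, a receptor of early progenitors, had an intensity of 891 and 989 on DKO 1 and DKO 2, 86.3 on DKO 3, and 906, 283 and 160 on WT 1 to 3. This probe set differed by 0.63 on the log2 scale, DKO minus WT, and the other tested Kit probe set by -0.36. Enpep, a surface enzyme of pre-B cells, had log2 levels of 14.68 and 14.82 on DKO 1 and DKO 2, 12.73 on DKO 3 and 12.71 to 13.70 on the WT arrays. Ms4a1, which encodes CD20 of later B cells, had log2 levels of 6.77 and 7.34 on DKO 1 and DKO 2, 12.80 on DKO 3, and 9.98, 9.39 and 12.63 on WT 1 to 3. Cd2 had log2 levels of 6.04, 7.06 and 10.90 in DKO 1, 2 and 3 against 9.19, 6.03 and 11.25 in WT 1, 2 and 3. Jchain, the joining chain gene, was above every WT array on all DKO arrays, at 6321, 2655 and 1907 against 314, 550 and 82.3. This order held for 6.97% of all tested probe sets. Of 7 plasma cell markers 2 had it, Jchain and Igha, and 0 had the reverse. Igha read 19431, 14896 and 6180 in DKO 1, 2 and 3 against 30.7, 162 and 44.9 in WT 1, 2 and 3. Sdc1 was the 1 marker with DKO 1 and DKO 2 below every WT array. It read 388, 376 and 658 in DKO 1, 2 and 3 against 1161, 3501 and 638 in WT 1, 2 and 3.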
